A study of Mus musculus with 16 samples.

Results

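The genes described here make and steer the actin filaments that move the meiotic spindle of the oocyte to its cortex. They are 10 genes chosen by symbol, out of 28618 entries in the expression table: the straight-filament nucleators Fmn2, Spire1 and Spire2, the Arp2/3 complex subunits Actr2, Actr3 and Arpc2, the Arp2/3 activator Wasf2, and the small GTPases Cdc42, Rac1 and Rhoa. All 10 had an entry. The rule used no expression value, but the members were chosen with earlier results of these data known. RNA was sequenced from mouse oocytes of wild-type (WT) and Psma7 cKO females at the germinal vesicle (GV) stage, when the oocyte is arrested in prophase, and at metaphase II (MII), the stage of the ovulated egg. Each of the 4 groups had 4 libraries, labelled as biological replicates, which makes 16 in all. Psma7 encodes an alpha subunit of the 20S proteasome core. In the cKO females (genotype label Zp3-Cre; Psma7 flox/flox) Cre is driven by the Zp3 promoter in oocytes from the primary follicle stage, and the surrounding follicle cells keep the gene. The floxed line is C57BL/6. The WT libraries carry only the label wildtype, so effects of the Cre transgene, the floxed allele and the deletion cannot be told apart. Females of 3 to 4 weeks received 5 IU PMSG. GV oocytes were taken 44 h later, or hCG was given at that time, and eggs were flushed from the oviduct 14 to 16 h after it and freed of cumulus cells with 0.3% hyaluronidase. Each library pooled 5 oocytes according to the labels, while the study's methods give a larger pool.

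In the mouse oocyte the spindle forms near the cell centre and has to reach the cortex before the polar body is extruded. Formin 2 and the Spire proteins build a cytoplasmic actin mesh together, with Spire sitting on Rab11-bearing vesicles and Formin 2 elongating the filaments. The Arp2/3 complex builds branched filaments under the cortex, where it forms the actin cap over the chromosomes and helps to hold the MII spindle in place. Cdc42 and Rac1 switch on the activators of Arp2/3, and Rhoa acts on formins and on myosin in the contractile ring. Growing oocytes store many of these mRNAs, and the fully grown oocyte is largely silent in transcription until after fertilization.

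Expression was given in FPKM (fragments per kilobase of transcript, scaled to the mapped fragments of the library), a level per transcript length and a share of the library. A share cannot tell less RNA per oocyte from fewer contributing cells, and with oligo-dT priming a change in RNA amount cannot be told apart from a change in poly(A) tail length. From the spacing of the smallest values, libraries held an estimated 10.5 to 15.7 M fragments. In every library the 10 oocyte markers stood at 1 FPKM or more. Psma7 had 165 ± 25.3 FPKM in WT and 14.6 ± 2.82 FPKM in cKO GV oocytes (SD, n = 4 libraries per group here and below), and 126 ± 32.1 and 39.7 ± 20.2 FPKM in eggs. At both stages the genotypes did not overlap and an exact permutation test gave a two-sided p of 0.0286, the smallest that 4 libraries against 4 allow. The cKO egg libraries differed among themselves. A set of 397 entries had been chosen because the WT mean dropped over 10-fold in maturation. Their summed level in each WT egg library was 5.93 to 6.80% of the WT GV mean. In cKO egg replicates 1 to 4 it was 12.7, 8.80, 34.5 and 19.0% of the cKO GV mean. The choice used these WT values, so a low WT share was fixed in advance. The genotypes are therefore not compared by it, and only the spread among cKO libraries is described.

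**Figure D1:**
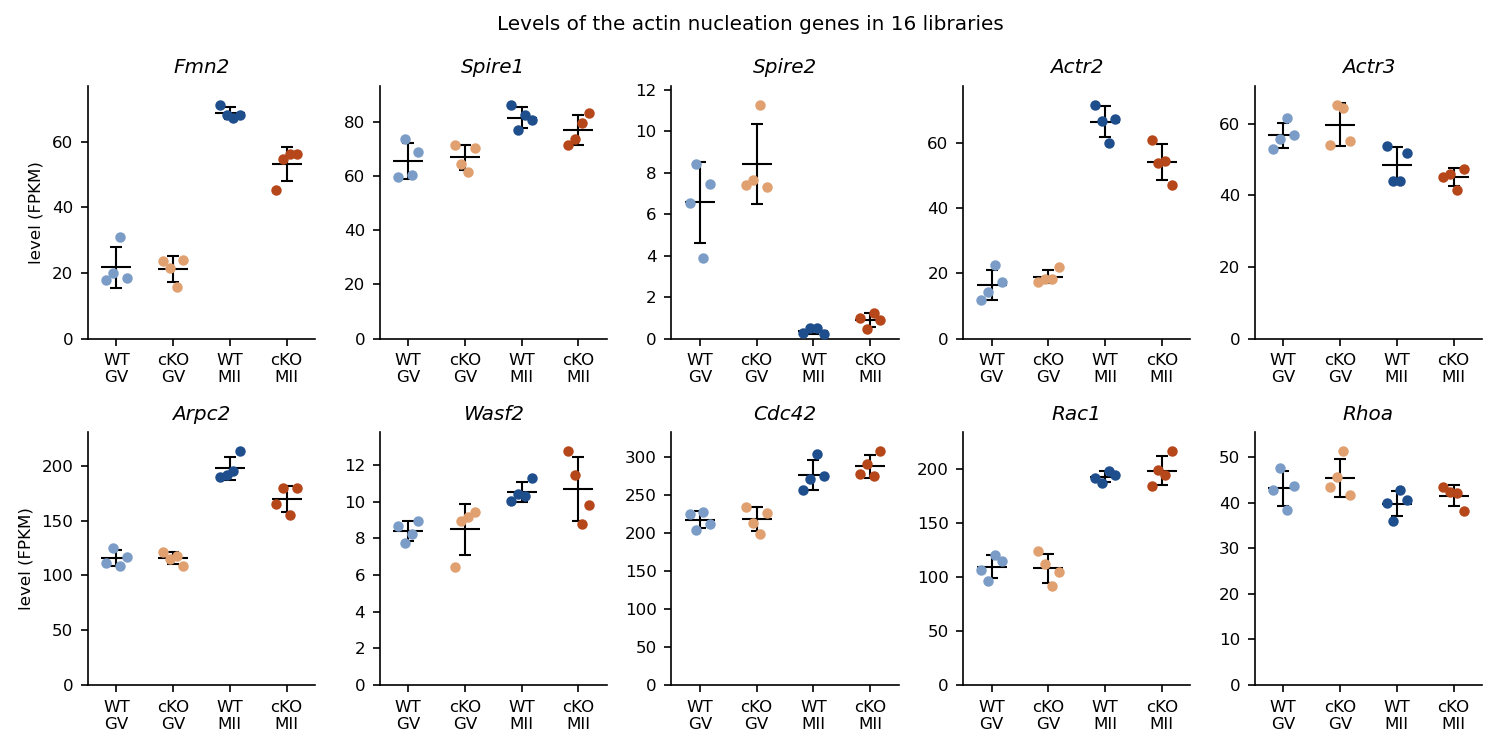
Levels of the 10 genes in FPKM, with an axis starting at 0 in each panel. Points are libraries, and the bars give the mean and SD of 4 libraries. Fmn2 and Actr2 were higher in all 8 egg libraries than in any GV library, Spire2 was near 0 in eggs, and the WT and cKO points of GV oocytes overlapped for every gene.

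The members spanned a wide range of levels, and their order was the same in WT and cKO GV oocytes. In WT GV oocytes Cdc42 was highest with a mean of 217 FPKM, followed by Arpc2 (116), Rac1 (110 ± 10.6), Spire1 (65.5), Actr3 (56.7), Rhoa (43.1), Fmn2 (21.8), Actr2 (16.4), Wasf2 (8.39) and Spire2 (6.57 FPKM). Neighbours whose 4 libraries overlapped were Arpc2 and Rac1, Spire1 and Actr3, Fmn2 and Actr2, and Wasf2 and Spire2, so that these pairs are not ordered beyond their spread. In WT eggs Fmn2 and Actr2 had passed Actr3 and Rhoa to ranks 5 and 6, and Spire2 stayed last at 0.369 FPKM. In cKO eggs Rac1 (199 FPKM) stood above Arpc2 (170 FPKM) with no overlap between their libraries, whereas in WT eggs the ranges of these genes overlapped.

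Maturation from GV to MII changed most of these genes, and in both directions. In WT, 7 of 10 rose and 2 fell by limma with Benjamini-Hochberg adjustment at a threshold of 0.05, on log2 of FPKM with values under 1 FPKM set to 1, a floor that understates changes of low genes. Over all 10475 entries tested 78.5% were called, 26.1% higher and 52.4% lower, so the total called among the members is near the background while the rises make up more of them. The WT groups did not overlap for 8 of 10 members and for 72.7% of all entries. The members had a median log2 fold change of 0.34, beside -0.44 for all entries tested. When libraries were scaled by the median ratio of expressed genes, the median of all entries moved to -0.22, and each WT maturation value below moved up by about the same step, which left 7 members higher and 1 lower. In cKO, 5 of 10 members rose and 2 fell, against 74% called over all 10748 entries (23% higher and 51% lower), with a median of 0.37 for the members and -0.42 for all. Scaling gave 7 higher and 1 lower in cKO, and the groups did not overlap for 8 members and for 68.6% of all entries.

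Fmn2, the formin that elongates the cytoplasmic actin mesh, was among the steepest risers. Its levels in WT GV oocytes were 17.7, 19.9, 31.1 and 18.4 FPKM in replicates 1 to 4. In WT eggs they were 71.3, 68.1, 67.3 and 68.2 FPKM. The egg libraries all lay above the GV libraries and close to each other. The means, 21.8 ± 6.27 and 68.7 ± 1.77 FPKM, gave a ratio of 3.16 and a log2 fold change of 1.70 (SE 0.16, limma adjusted p = 2.31e-06), and 0.745% of all entries tested rose as much or more. In cKO GV oocytes Fmn2 had 23.8, 21.4, 15.7 and 24.0 FPKM, and in cKO eggs 45.4, 54.6, 56.3 and 56.4 FPKM. The rise was again without overlap, 2.51-fold between the means, with a log2 fold change of 1.34 (SE 0.15, limma adjusted p = 3.91e-05). Fmn2 lies on chromosome 1 of GRCm38 (174501825 to 174822729, plus strand). Its annotated mRNA ends in 2 separate copies of the polyadenylation hexamer AATAAA, shown here because the libraries were primed on poly(A) tails.

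The ends of 3 member mRNAs are set side by side for that reason, each as a stretch of 30 bases of the 3′ UTR in GENCODE M21 (GRCm38), 5′ to 3′ on the mRNA strand. Capitals mark the hexamers AATAAA or ATTAAA and the cytoplasmic polyadenylation element (CPE) TTTTAAT, one of the spellings of the motif that CPEB binds in oocytes.
Fmn2, chr1:174822700-174822729, plus strand: ttatatgaaAATAAAatgaatAATAAAata
Actr2, chr11:20062316-20062345, minus strand: cttctTTTTAATtaagaaAATAAAtaagat
Actr3, chr1:125392908-125392937, minus strand: tgatgacAATAAATTAAAattgaattaccc
In the last 100 bases, on the mRNA strand only, either CPE spelling (TTTTAT or TTTTAAT) was found in 2 of 10 members, Spire1 and Actr2, and in 17.8% of 19940 genes with an annotated 3′ UTR of that length. Either hexamer was found in 7 of 10 members and in 78.2% of all genes, and in Actr3 the 2 hexamers overlap by 1 base. In Actr2 the CPE began 13 bases before the hexamer. Such matches describe the annotated ends and are not shown to be sites in use.

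The Spire genes went separate ways. Spire1, on chromosome 18, was the more abundant partner of Fmn2 and rose slightly in WT, from 65.5 ± 6.78 to 81.5 ± 3.90 FPKM. Its WT values were 59.7, 73.5, 60.1 and 68.8 FPKM in GV oocytes and 86.3, 76.9, 82.4 and 80.6 FPKM in eggs, without overlap. The log2 fold change was 0.32 (SE 0.09, limma adjusted p = 0.00644) in WT. In cKO it was 0.20 (SE 0.09, limma adjusted p = 0.0578), with the GV libraries at 61.4 to 71.3 and the egg libraries at 71.4 to 83.3 FPKM. The call in cKO was not made, although the groups did not overlap.

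Spire2, the second Spire nucleator, was the member whose level fell most during maturation. It had 6.54, 8.41, 3.89 and 7.44 FPKM in WT GV oocytes and 0.243, 0.498, 0.509 and 0.228 FPKM in WT eggs. All egg libraries lay below all GV libraries, and the egg mean was 0.0562 times the GV mean. The log2 fold change on floored values was -2.66 in WT (SE 0.21, limma adjusted p = 7.32e-07). In cKO the GV libraries had 7.41, 7.64, 11.3 and 7.33 FPKM and the egg libraries 0.993, 0.436, 1.24 and 0.880 FPKM, with a log2 fold change of -2.97 (SE 0.17, limma adjusted p = 1.48e-06). In cKO the egg mean was 0.106 times the GV mean. With a floor of 0.1 FPKM the value was -4.20 in WT and -3.32 in cKO, since the floor of 1 FPKM stood above every WT egg library. The genotype with the larger fall thus depended on the floor. The interaction did not pass with a floor of 1 or 0.1 FPKM (limma adjusted p = 0.627 and 0.359). On the longest annotated transcript of 2330 bases these egg levels correspond to about 7 to 17 fragments in WT and 13 to 39 in cKO. Spire2 lies on chromosome 8 (123332713 to 123369515, plus strand).

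The ratio of Fmn2 to Spire1, a description of levels per length, moved with these changes. It was 0.338 ± 0.120 in WT GV oocytes and 0.844 ± 0.0307 in WT eggs, and 0.316 ± 0.0405 and 0.691 ± 0.0454 in cKO. In eggs the WT libraries ranged from 0.816 to 0.886 and the cKO libraries from 0.636 to 0.742, without overlap. The ratio was not tested, and no share over other gene pairs was computed. It holds the same Fmn2 values as the genotype comparison in eggs below and is not separate evidence.

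The 3 Arp2/3 subunits also diverged. Actr2, which encodes Arp2, had the steepest rise of the members. Its WT levels were 11.8, 14.2, 22.5 and 17.2 FPKM in GV oocytes and 71.6, 66.8, 60.0 and 67.2 FPKM in eggs. The groups were far apart, with a ratio of 4.04 between the means and a log2 fold change of 2.05 (SE 0.17, limma adjusted p = 8.87e-07), and 0.239% of all entries rose as much or more. In cKO the levels were 17.4, 18.3, 18.2 and 21.8 FPKM in GV oocytes and 60.9, 53.7, 54.4 and 47.2 FPKM in eggs. The ratio was 2.85 and the log2 fold change 1.51 (SE 0.11, limma adjusted p = 4.05e-06). Actr2 lies on chromosome 11 (20062304 to 20112913, minus strand).

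Actr3, which encodes Arp3, the structural partner of Arp2, did not rise. It had 53.1, 55.7, 61.5 and 56.7 FPKM in WT GV oocytes and 53.8, 44.0, 44.0 and 51.9 FPKM in WT eggs. The groups overlapped in 1 egg library, and the log2 fold change was -0.23 (SE 0.09, limma adjusted p = 0.0397). That call held in 8 of 17 settings and was lost, among other settings, with median-ratio scaling, where the value was -0.01 (limma adjusted p = 0.933), and without WT GV replicate 2, 3 or 4 or WT egg replicate 2 or 3. In cKO the fall was from 59.7 ± 5.94 to 45.0 ± 2.49 FPKM, without overlap, with a log2 fold change of -0.40 (SE 0.09, limma adjusted p = 0.00345), which scaling brought to -0.15 (adjusted p = 0.229). The ratio of Actr2 to Actr3 went from 0.287 ± 0.0620 to 1.38 ± 0.0982 in WT and from 0.320 ± 0.0544 to 1.21 ± 0.160 in cKO, so that the Arp2 transcript passed the Arp3 transcript in all 4 WT egg libraries and in 3 of the 4 cKO egg libraries.

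Arpc2, a core subunit that holds the complex on the mother filament, rose by a smaller step from a higher level. In WT it had 112, 125, 108 and 117 FPKM in GV oocytes and 190.1, 191, 196 and 213 FPKM in eggs. No libraries overlapped, the ratio was 1.71, and the log2 fold change was 0.77 (SE 0.08, limma adjusted p = 3.48e-06). In cKO the GV libraries had 109 to 121 FPKM and the egg libraries 165, 179, 155 and 179 FPKM, a log2 fold change of 0.55 (SE 0.08, limma adjusted p = 2.00e-04).

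Wasf2, which encodes the WAVE2 activator that works downstream of Rac1, changed little. Its 4 WT GV libraries ranged from 7.74 to 8.94 FPKM and its WT egg libraries from 10.0 to 11.3 FPKM, a log2 fold change of 0.33 (SE 0.10, limma adjusted p = 0.00975). In cKO the egg libraries spread from 8.76 to 12.7 FPKM and overlapped the GV range of 6.43 to 9.43 FPKM, and the same log2 fold change of 0.33 did not pass (SE 0.17, limma adjusted p = 0.0970).

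Among the GTPases, Rac1 rose most. It had 107, 96.2, 120 and 115 FPKM in WT GV oocytes and 192, 187, 199 and 195 FPKM in WT eggs. The WT egg libraries all lay above the GV libraries, with a log2 fold change of 0.82 (SE 0.08, limma adjusted p = 4.24e-06), and in cKO the value was 0.88 (SE 0.10, limma adjusted p = 5.49e-05). Cdc42, the polarity GTPase of the cortex, rose from 217 ± 11.2 to 276 ± 19.6 FPKM in WT and from 218 ± 15.5 to 287 ± 14.9 FPKM in cKO, with log2 fold changes of 0.35 and 0.40 (limma adjusted p = 0.00162 and 0.00143). Rhoa, which acts on the contractile ring, had 43.1 ± 3.85 FPKM in WT GV oocytes and 39.8 ± 2.78 in WT eggs, and 45.5 ± 4.20 and 41.5 ± 2.28 in cKO. Its log2 fold changes of -0.11 and -0.13 did not pass (limma adjusted p = 0.265 and 0.223), and scaling turned their sign to 0.11 and 0.12.

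**Figure D2:**
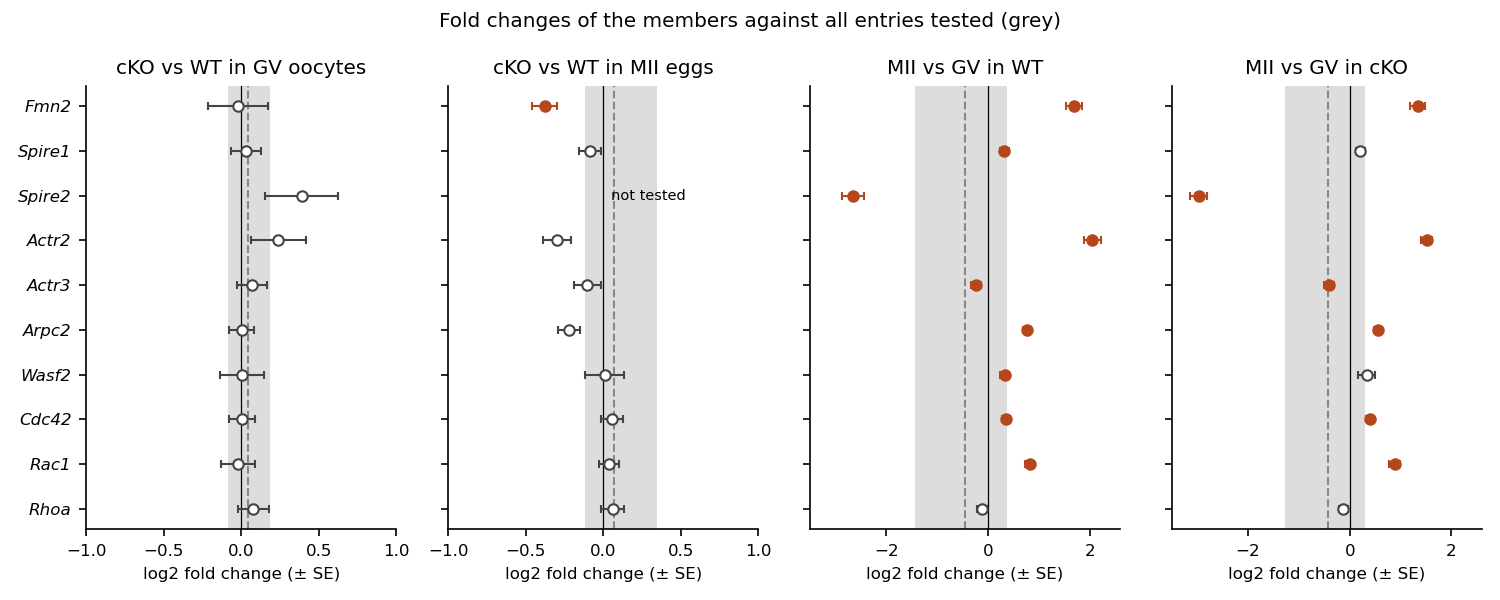
Log2 fold changes of the 10 genes with their SE in the 4 comparisons, the left pair on a narrower axis than the right pair. Filled points passed an adjusted p of 0.05, the dashed line and grey band give the median and the middle quartiles of all entries tested, and Spire2 was too low in eggs to be tested between genotypes. In maturation Fmn2 (1.70 in WT) and Actr2 (2.05 in WT) lay far to the right of the band, and between genotypes Fmn2 in eggs (-0.38) was the filled point.

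In GV oocytes the levels of these genes were close between genotypes. By limma with Benjamini-Hochberg adjustment 0 of 10 members were called, and 0.118% of all 11062 entries were called (0.0994% higher and 0.0181% lower). An unadjusted limma p under 0.05 was found for 0 of 10 members and for 1182 of the 11062 entries. The adjusted p ran from 0.612 (Spire2) to 0.996 (Wasf2). The members' log2 fold changes lay between -0.02 and 0.08, with SE of 0.08 to 0.19, except those of Actr2 (0.24, SE 0.18) and Spire2 (0.39, SE 0.24). In cKO as a share of WT, Fmn2 stood at 97.4%, Spire1 at 102%, Arpc2 at 100.2%, Cdc42 at 100.4% and Rac1 at 98.7% of the mean level. The WT and cKO libraries overlapped for all 10 members, and 6.67% of all entries had no overlap. The summed level of 11 cumulus and granulosa markers was higher in cKO GV libraries (15.6 to 18.9 FPKM) than in WT (13.3 to 15.3 FPKM), with an exact permutation p of 0.0286. With median-ratio scaling, and also without any 1 of the WT GV libraries, the p was 0.0571. Most of that sum came from Cyp19a1 and Kitl. Cyp11a1 averaged 1.48 FPKM in WT and 1.99 in cKO GV oocytes, and Fshr 0.482 and 0.634 FPKM, also higher in cKO. Star (0.315 and 0.171 FPKM) and Inhba (0.0886 and 0.0785 FPKM) were lower in cKO. Amh, Foxl2, Has2, Ptx3 and Tnfaip6 had group means at or near 0.

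In eggs Fmn2 stood lower in cKO than in WT. The paper reports that some ovulated cKO oocytes lacked a polar body, stayed at the GV stage or were held in telophase I. The labels do not say whether such oocytes were pooled as MII, and their part in the genotype differences was not tested. Of the 9 members tested, Fmn2 was called lower and none higher, beside 8.02% of 9492 entries called, 1.49% lower and 6.53% higher. Fmn2 had 67.3 to 71.3 FPKM in WT eggs and 45.4 to 56.4 FPKM in cKO eggs, a mean of 77.4% of WT. All 4 cKO libraries lay below all 4 WT libraries, and the log2 fold change was -0.38 (SE 0.08, limma adjusted p = 0.0332). The call held in 10 of 17 settings, and over all of them the value ran from -0.42 to -0.30. Losses came without any 1 of the WT egg replicates 1 to 4 (adjusted p = 0.1005, 0.0712, 0.0763 and 0.0744), without an intensity trend in the moderation (0.0537), with all 16 libraries in 1 fit (0.126) and with a replicate block (0.0748). The call was kept without any 1 of the cKO egg replicates 1 to 4 (limma adjusted p = 0.0462, 0.0322, 0.0454 and 0.0450).

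Actr2 and Arpc2 lay in the same direction without passing. Actr2 reached 81.4% of its WT mean in cKO eggs, with a log2 fold change of -0.30 (SE 0.09, limma adjusted p = 0.0687), and 1 cKO library, at 60.9 FPKM, lay inside the WT range of 60.0 to 71.6 FPKM. It passed in 1 of 17 settings, median-ratio scaling (-0.35, limma adjusted p = 0.0428), and the adjusted p reached 0.190 with all 16 libraries in 1 fit. Arpc2 reached 85.9% of WT, with a log2 fold change of -0.22 (SE 0.07, limma adjusted p = 0.0810) and no overlap between the genotypes. It passed in 1 of 17 settings, all 16 libraries in 1 fit (limma adjusted p = 0.0443), and the adjusted p reached 0.264 without a filter. Of the 9 members tested 2 had no overlap, Fmn2 and Arpc2, and 20.7% of all entries had none.

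Of the other members, 6 were not called in eggs. Spire1 stood at 94.4%, Actr3 at 92.9%, Wasf2 at 102%, Cdc42 at 104%, Rac1 at 103% and Rhoa at 104% of the WT mean, and their limma adjusted p ran from 0.449 to 0.970. Spire2 averaged 0.369 ± 0.155 FPKM in WT and 0.888 ± 0.337 FPKM in cKO eggs, 240.3% of WT. Of the cKO libraries 1 library fell within the WT range and the mean over both groups was under the minimum of 1 FPKM, so it was not tested. The marker sum for cumulus and granulosa cells was 20.2 ± 1.87 FPKM in WT and 20.6 ± 0.662 FPKM in cKO eggs (exact permutation p = 0.857).

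Whether maturation itself differed between genotypes was asked with the genotype by stage interaction over all 16 libraries. No member passed in limma, and 1.26% of 10615 entries were called (1.07% higher and 0.188% lower in cKO). An unadjusted limma p under 0.05 was found for 2 of 10 members and for 1881 of the 10615 entries. Actr2 rose by 0.54 less on the log2 scale in cKO (SE 0.21, limma adjusted p = 0.199) and Arpc2 by 0.22 less (SE 0.10, limma adjusted p = 0.262). The Fmn2 difference was -0.36 (SE 0.23, limma adjusted p = 0.460). The Spire1 difference was -0.12 (SE 0.12, limma adjusted p = 0.678). As a description, the gain in mean FPKM from GV to MII was 68.1% of the WT gain for Fmn2, 63.3% for Spire1, 70.3% for Actr2 and 65.8% for Arpc2. It was 103% for Wasf2, 108% for Rac1 and 117% for Cdc42. Where the mean fell, the fall in cKO was 121% of the WT fall for Spire2, 177% for Actr3 and 119% for Rhoa. The share over all entries was not computed for this measure. The genotype difference in eggs and this interaction share the egg libraries, so their signs are not separate evidence.

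The rest of the pathway was taken from a list of 82 genes in 7 roles, of which 80 had an entry. In WT maturation 23 of 61 tested entries rose and 28 fell by limma, 83.6% called beside the background of 78.5%, and the list's median log2 fold change was -0.04. With median-ratio scaling the split was 29 higher and 22 lower. In cKO 20 of 60 rose and 24 fell, 73.3% called beside 74% of all entries (23% higher and 51% lower). The list's median in cKO was -0.06, beside -0.42 for all entries, and scaling gave 25 higher and 22 lower. Of the entries called in both, 43 of 43 had the same direction.

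Most other subunits of the Arp2/3 complex did not rise with Actr2 and Arpc2. Of 6 tested 0 rose and 4 fell in WT: Arpc1a from 39.3 to 4.91 FPKM (log2 fold change -3.00, SE 0.15), Arpc5l from 65.5 to 30.5, Arpc3 from 7.83 to 3.67 and Arpc4 from 7.09 to 3.79 FPKM. That is 66.7% called, beside 78.5% of all entries called and 52.4% called lower. Arpc1b, at 91.9 and 87.2 FPKM, and Arpc5, at 36.1 and 40.4 FPKM, did not pass. The same 4 subunits fell in cKO, by limma adjusted p of 6.53e-05 for Arpc1a to 0.0128 for Arpc3. Genes listed as subunits of the complex thus had transcripts that rose 4.04-fold (Actr2) and that fell to 4.91 from 39.3 FPKM (Arpc1a). Its paralog Arpc1b stayed at the higher levels given above. The counts are of genes, and paralogs such as Arpc1a and Arpc1b were not summed. With median-ratio scaling 1 subunit rose in WT, Arpc5 (0.39, limma adjusted p = 0.00980), the same 4 fell in WT, and 3 fell in cKO, where Arpc3 had -0.43 (limma adjusted p = 0.0540).

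**Figure D3:**
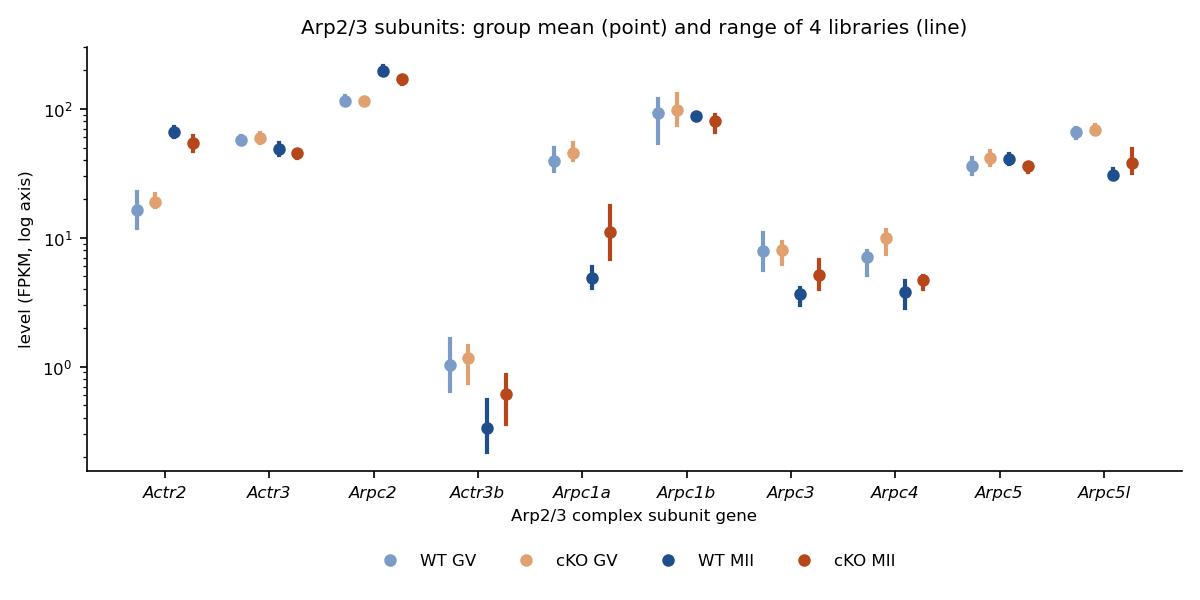
Mean level (points) and range of 4 libraries (lines) of 10 Arp2/3 subunit genes in FPKM on a log axis, by group. Actr2 and Arpc2 were higher in eggs than in GV oocytes, Arpc1a, Arpc3, Arpc4 and Arpc5l were lower, and Arpc1a stood higher in cKO eggs (11.1 FPKM) than in WT eggs (4.91 FPKM).

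Of 7 other formins and nucleators tested in WT 5 rose and 1 fell, where 26.1% of all entries rose and 52.4% fell. Daam1 rose from 11.3 to 51.1 FPKM (log2 fold change 2.204, SE 0.15, limma adjusted p = 2.45e-07), and Fhod3, Cobl, Diaph1 and Diaph3 rose with values of 0.81, 0.83, 0.69 and 0.59. Fmnl3 fell by 2.24 on the log2 scale. With scaling 6 rose and 1 fell. Of 9 nucleation promoting factors and WAVE complex genes 7 rose and 2 fell in WT, beside the same shares over all entries. The largest rises were those of Wasf3 (1.42), Nckap1 (1.32) and Wasl (0.86), which encode WAVE3, a WAVE complex subunit and N-WASP. Of the 4 inhibitors and branch regulators 1 rose and 3 fell, again beside 26.1% higher and 52.4% lower over all entries. Coro1c stood at -3.45 and Coro1b at -2.37, both coronins that act on branched filaments.

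Of 12 genes of actin and its turnover 1 was higher and 8 lower in WT, beside 26.1% higher and 52.4% lower over all entries. With scaling 2 were higher and 5 lower, where 8249 of 10420 entries were called in either direction. Actg1, cytoplasmic gamma actin, fell from 44.7 ± 5.71 to 8.07 ± 0.674 FPKM, while Actb, beta actin, went from 15.4 ± 1.69 to 12.6 ± 0.967 FPKM (log2 fold change -0.28, limma adjusted p = 0.0313). The severing factors Dstn and Cfl2 fell by 2.92 and 1.95 on the log2 scale. Cfl1, cofilin, had 1139 ± 82.9 FPKM in GV oocytes and 1118 ± 182 in eggs and did not pass, and Pfn1, profilin, had 42.0 and 32.0 FPKM (log2 fold change -0.42, limma adjusted p = 0.0253). In cKO maturation Cfl1 passed as higher (0.28, limma adjusted p = 0.0108), and Actb (-0.03) and Pfn1 (-0.21) did not pass. With scaling Actb and Pfn1 did not pass in WT either (-0.06 and -0.19, limma adjusted p = 0.638 and 0.278).

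Among 13 effectors and regulators of the GTPases 3 rose and 8 fell in WT, beside 26.1% higher and 52.4% lower over all entries. With scaling 4 rose and 5 fell. Arhgdia, an inhibitor that holds small GTPases in the cytosol, had the largest fall of the list (-4.76, SE 0.23), followed in this role by the kinase Limk2 (-3.02) and the scaffold Iqgap1 (-1.93). The Rac1 activator Tiam1 (1.17) and the Rhoa effector kinase Rock1 (0.85) rose. Of 10 cortical myosin, linker and vesicle motor genes 6 rose and 2 fell, beside the same shares over all entries. With scaling 8 rose and 2 fell. The largest rises were those of the myosin light chains Myl6 (1.497) and Myl12b (0.93) and of anillin, Anln (0.83). Of the listed pathway genes named above that had passed in WT, those that did not pass in cKO were Cobl (0.34, limma adjusted p = 0.113), Actb and Pfn1. The largest changes in cKO also took in Rdx, a membrane linker (0.72), and Rab11b, of the vesicle GTPases that Spire binds (-1.84). In WT the values were 0.74 for Rdx and -1.50 for Rab11b. Rab11b was low, at 3.72 FPKM in cKO GV oocytes and 0.888 FPKM in cKO eggs, under the floor. Its paralog Rab11a, at 211 FPKM in GV oocytes of each genotype, rose in WT (0.23, limma adjusted p = 0.0173) and in cKO (0.40, limma adjusted p = 0.00167).

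**Figure D4:**
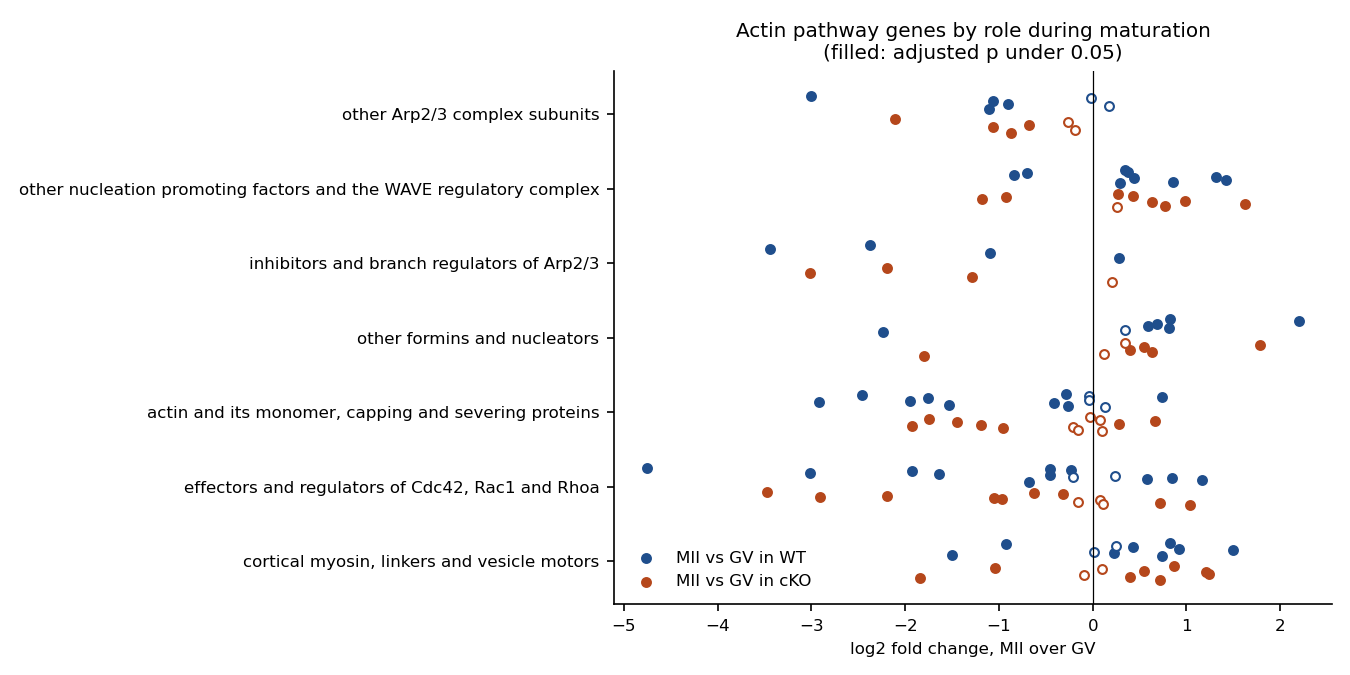
Log2 fold changes from GV to MII of the listed pathway genes by role, WT in blue and cKO in orange, with filled points past an adjusted p of 0.05. Formins and nucleation promoting factors lay mostly to the right of 0, and the other Arp2/3 subunits, the actin turnover proteins and the GTPase regulators mostly to the left, with Arhgdia at -4.76 in WT.

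Between genotypes the list was called about as rarely as all entries. In GV oocytes 0 of 62 entries were called by limma, beside 0.118% of all entries, and 4 had an unadjusted p under 0.05. The interaction called 0 of 61, beside 1.26% of all entries, with 10 unadjusted. Over all entries 1182 of 11062 in GV oocytes and 1881 of 10615 in the interaction had an unadjusted limma p under 0.05. In eggs 4 of 61 were called, all higher in cKO, 6.56% beside the background of 8.02%. Arpc1a had 4.07, 5.21, 5.89 and 4.44 FPKM in WT eggs and 9.57, 6.81, 17.6 and 10.4 FPKM in cKO eggs (log2 fold change 1.11, SE 0.26, limma adjusted p = 0.0398). Arhgdia averaged 1.15 and 3.32 FPKM (1.44, SE 0.31, adjusted p = 0.0332), Actg1 8.07 and 15.7 FPKM (0.94, SE 0.15, adjusted p = 0.0206), and Capzb, a subunit of the capping protein, 9.82 and 14.5 FPKM (0.55, SE 0.13, adjusted p = 0.0416). For Arpc1a, Arhgdia and Actg1 the cKO library furthest above WT was replicate 3. In that library 34.5% remained of the entries chosen for a drop over 10-fold in WT, and its part in these values was not tested. Arhgdia, at 31.9 FPKM in WT GV oocytes and 1.15 FPKM in WT eggs, is itself among those entries. Without any 1 WT egg replicate the count was 0, and without a cKO egg replicate it was 1, 8, 3 and 2 for replicates 1 to 4.

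Over all 16 libraries the entries whose profile was most like that of Fmn2 were Mapk8, Msl2, Med10, Usp34 and Obox5, by the root mean square difference of log2 levels centred on each entry's mean (0.120 to 0.142). Mapk8, a JNK kinase, for instance averaged 10.6, 9.89, 28.3 and 26.1 FPKM in WT GV, cKO GV, WT MII and cKO MII. Of the other members Actr2 was closest, at rank 203 of 10614 entries, followed by Rac1 at 769 and Arpc2 at 1318. Spire1 stood at 2545, Actr3 at 4619 and Spire2, the Spire gene whose level fell, at 10069. These ranks describe the same libraries as the comparisons above.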

How the data were processed

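GV oocytes and MII eggs of both genotypes were sequenced, with 4 libraries in each group. These were primed with oligo-dT and made by Smart-seq2. The submitters' processing notes name TopHat2 2.1.1 for alignment, Cufflinks 2.2.1 for quantification and the build mm10, and the gene annotation is not given in the sources used here. The authors deposited 1 table of FPKM values, which holds 28618 entries for 27987 gene names and 0 ERCC spike-in entries, so changes in total RNA were not measured. FPKM depends on the gene models, reads shared by paralogs can be split between them, and replicates were not pooled.

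Values below 1 FPKM were set to 1, as in the study, and log2 transformed. Entries averaging 1 FPKM or more in the fitted libraries were tested with limma 3.58.1 in R 4.3.3, with an intensity trend and Benjamini-Hochberg adjustment over all entries of the fit. Each comparison used its own 8 libraries, and the interaction all 16. Single values were compared by exact permutation tests. Depth was estimated from the steps of values under 0.6 FPKM and the lengths of single-transcript genes, and approximate fragment numbers cover counting error only, since no molecular identifiers were used. The labels name no batch. The procedures were tested on simulated data. Gene positions and mRNA ends came from GENCODE M21 (GRCm38), with 1 coding transcript per gene. Python 3.11.15, numpy 2.4.6, pandas 2.3.3 and matplotlib 3.10.9 were used.

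The genes named are the 10 members, Psma7, Actb, Actg1, Pfn1, Cfl1, the listed pathway genes past the threshold with the 10 largest changes in each direction, the other Arp2/3 subunits and formins, and the 5 entries most like Fmn2. Arpc1b, Arpc3, Arpc4, Arpc5, Arpc5l, Fhod3, Diaph1, Diaph3 and Rab11a fell outside that rule and were named after their values were seen. Members and lists were chosen with earlier results of these data known. As alternatives, the floor was 0.1 FPKM or replaced by adding 1 FPKM, the filter was dropped or raised to 5 FPKM, and the fits were repeated with no trend, median-ratio scaling, a replicate block, summing by gene name, all libraries in 1 fit, the study's 3-fold rule, and leaving out each library.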

Additional observations from a re-analysis of the deposited data

Results flagged for a closer look

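Among 44 groups of 4 libraries examined (10 members and Psma7 in 4 groups), 4 held a library far from the other 3, where chance gives about 1 in 20 groups. Fmn2 stood at 31.1 FPKM in WT GV replicate 3, beside 17.7 to 19.9 FPKM in the other replicates. Without it the log2 fold change of Fmn2 in WT maturation was 1.88 in place of 1.70. Fmn2 stood at 45.4 FPKM in cKO egg replicate 1, beside 54.6 to 56.4 FPKM, and without it the log2 fold change between genotypes in eggs was -0.30 (limma adjusted p = 0.0462). Spire2 stood at 11.3 FPKM in cKO GV replicate 3, beside 7.33 to 7.64 FPKM, and Wasf2 at 6.43 FPKM in cKO GV replicate 1, beside 8.96 to 9.43 FPKM.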

How the results depend on the processing

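Of 1128 recomputed values, 1020 kept their direction and their side of the threshold or, for counts of genes, stayed within 1.5 times the count reported. The rises of Fmn2, Actr2, Arpc2, Rac1 and Cdc42 and the fall of Spire2 in maturation passed in both genotypes in every limma alternative run. In eggs, 0 members and 2 listed pathway genes were called without an intensity trend, the same numbers with a replicate block, and 0 and 0 by the study's 3-fold rule, while no filter gave 7 pathway genes, all libraries in 1 fit gave 10, and median-ratio scaling gave 2 members (Fmn2 and Actr2). In the fits without a filter limma warned that most residual variances were exactly 0 and the moderation unreliable. The 3-fold rule gave 3 members and 13 pathway genes in WT maturation, and 1 and 12 in cKO. In the interaction a mean of at least 5 FPKM and the replicate block each gave 1 pathway gene. Leaving out 1 library gave 0 to 1 members and 0 to 8 pathway genes in eggs, and 0 to 6 pathway genes in the interaction. Same-numbered libraries deviated together with correlations from -0.496 to 0.285, so the replicate numbers were not taken to pair the samples. With the replicate block the Fmn2 difference in eggs (log2 fold change -0.38) had a limma adjusted p of 0.0748 and the Actr3 fall in WT maturation one of 0.0977, and no other member call changed. Small values changed sign. With median-ratio scaling the log2 values between genotypes became -0.027 for Arpc2, -0.028 for Wasf2 and -0.026 for Cdc42 in GV oocytes, and -0.040 for Wasf2 and -0.011 for Rac1 in eggs. Rhoa became 0.11 in WT and 0.12 in cKO maturation, and Wasf2 -0.023 in the interaction. The Spire2 interaction became 0.88 with a floor of 0.1 FPKM and 0.12 with 1 FPKM added. The cKO minus WT difference in the cumulus and granulosa marker sum became 2.604 FPKM in GV oocytes (exact permutation p = 0.0571) and -0.271 FPKM in eggs with scaling. Leaving out 1 library gave 2.43 to 3.52 FPKM and -0.496 to 0.894 FPKM. For the log2 values in GV oocytes it gave -0.11 to 0.16 for Fmn2, -0.012 to 0.088 for Spire1, -0.027 to 0.042 for Arpc2, -0.053 to 0.13 for Wasf2, -0.030 to 0.048 for Cdc42 and -0.090 to 0.053 for Rac1. In eggs it gave -0.080 to 0.10 for Wasf2 and -0.0043 to 0.074 for Rac1, and in the interaction -0.12 to 0.10 for Wasf2, -0.014 to 0.13 for Rac1 and -0.064 to 0.044 for Rhoa. Depth limits Spire2 most, at 7 to 39 fragments per egg library. The cause of these changes was not tested.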
